A study of Mus musculus with 28 samples.

Results

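RNA sequencing of wild-type mouse bone marrow set mesenchymal stromal cells (MSCs), the nonblood cells that line bone, against total bone marrow mononuclear cells (MNCs), a mix of developing blood cells. The libraries were chosen by their labels alone and are 9 of the 28 in the study, 5 of MSCs and 4 of MNCs, and all 25251 genes of the count table were compared. Both groups came from C57BL/6 mice, 8 to 10 wk old and Flt3+/+, which means that the receptor gene Flt3 carried no internal tandem duplication. The labels give no treatment, and each library came from 1 mouse. MSCs had been set free from crushed bone with collagenase and sorted as negative for CD45, Ter119, CD31 and CD166 and positive for Sca1, 100 cells to a library. MNCs were the whole mononuclear fraction, 200 cells to a library, with no gate on lineage, so that a level in MNCs is an average over many cell types. The cell type field of the labels reads bone lining cells for MNCs as it does for MSCs, so the sources do not settle which part of the marrow the MNCs came from, nor whether they too went through collagenase. A gene lower in such a mix can mean fewer cells that make it or less RNA in each cell, and bulk libraries cannot tell these apart. Levels below are RPKM, reads scaled to transcript length and to the reads of the library, given per library in the order of the replicate numbers.

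Bone marrow holds stem cells and their descendants, the neutrophils, monocytes, erythroid cells and lymphocytes, inside a scaffold of bone, vessels and stroma. Stromal cells of the bone surface and of the vessel walls lay down the collagen matrix, give rise to bone, cartilage and fat, and release the growth factors and chemokines that hold blood stem cells and B cell precursors in place. Blood cells carry the matching receptors, and most of them also use a dedicated set of signaling and cytoskeletal proteins that few other tissues make.

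The 5 MSC libraries held 12300624 to 33714502 counts and 15235 to 16334 genes with a count, and the 4 MNC libraries held 14260910 to 22149240 counts and 16832 to 17970 genes. The 10 most abundant genes took 12.5 to 14.3% of all RPKM in MSCs and 30.2 to 40.1% in MNCs. Across genes, log2 RPKM correlated at Pearson's r = 0.877 to 0.907 between MSC libraries, 0.937 to 0.973 between MNC libraries and 0.495 to 0.564 across the populations. Some libraries stood apart. MNC replicate 1 was nearly free of erythroid RNA: the summed RPKM of 43 erythroid genes was 542.6 there and 40850, 157100 and 142400 in the other MNC libraries, beside 441.2 to 556.2 in MSCs. MSC replicate 5 held the most leukocyte RNA of the MSC libraries, with a summed RPKM of 195.3 over 24 leukocyte genes against 55.78 to 81.02 in the others and 9119 to 11890 in MNCs. Xist, the RNA of the inactive X chromosome, was at 13.6 and 14.1 RPKM in MSC replicates 1 and 4 and at most 0.15 in the other 7 libraries. The Y-linked gene Ddx3y was at 0.21 and 0.07 in those same 2 libraries and at 18.04 to 49.03 in the others. Both sexes were thus present among the MSC libraries by these genes, while all 4 MNC libraries were male, so sex was partly confounded with population. A fit on MSC replicates 2, 3 and 5, the male ones, gave 3425 genes higher in MSCs and 3319 in MNCs by the calls defined below. The part of sex in single differences was not tested.

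Of 14885 genes with enough reads to test, 3419 (23%) were higher in MSCs and 2938 (19.7%) were higher in MNCs, by edgeR's quasi-likelihood test with a Benjamini-Hochberg adjusted p under 0.1 and a difference of at least 2-fold in mean RPKM. Together they make 6357 genes (42.7%), the background against which the gene groups below are read. Most differences were large: 2419 of the MSC genes and 1998 of the MNC genes differed by at least 4-fold. Every MSC library lay above every MNC library for 2724 of the genes tested (18.3%), and the reverse held for 3070 (20.6%). No count at all was found in any MNC library for 241 of the genes called higher in MSCs, and none in any MSC library for 329 of those called higher in MNCs. A gene with almost no reads in 1 population passed the read filter through the other alone, which set its direction. Gene groups below hold such genes. Without MNC replicate 1 the counts were 3476 and 2723, and without MSC replicate 5 they were 3155 and 2915. The p-values measure the spread between these libraries, which holds both the mice and the preparation. At the other end, 503 genes were at 100 RPKM or more in both populations, and 114 of these differed.

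**Figure D1:**
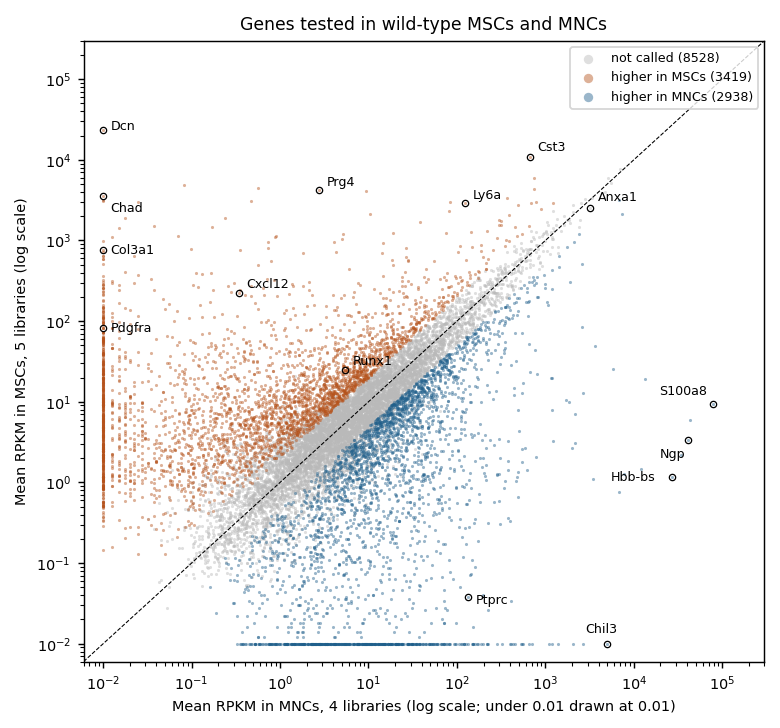
Each point is a gene tested, with its mean RPKM in the 4 wild-type MNC libraries on the x axis and in the 5 wild-type MSC libraries on the y axis, both on a log scale with levels under 0.01 drawn at 0.01. Brown points are the 3419 genes called higher in MSCs, blue points the 2938 called higher in MNCs and gray points were not called, and the points along the left and lower edges, led by Dcn and Chil3, had almost no reads in the other population.

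The genes that set MSCs apart most were those of a collagen-rich matrix. Dcn, which encodes decorin, a proteoglycan that binds collagen fibrils, was the most abundant gene of MSCs at 23957, 21731, 24303, 24690 and 22075 RPKM, and no MNC library held a count of it, a difference of at least 1052450-fold (the floor being 3 counts over the 4 MNC libraries together). Its relative Lum, lumican, was at 4033, 2497, 4389, 2740 and 2377 RPKM in MSCs and at 0 in MNCs. Chad, chondroadherin, a cartilage matrix protein, was at 3631, 2440, 2489, 4471 and 4710 RPKM in MSCs and likewise at 0 in MNCs. The 15 genes with the largest fold in MSCs also held Fmod, Thbs4 and Sparcl1 of the matrix, Cilp of cartilage, the collagen gene Col3a1, Pcolce and Pcolce2, which help enzymes to trim procollagen, and Sod3, the superoxide dismutase of the extracellular space. The rest of the 15 were Anxa8, an annexin, Clec3a, a cartilage lectin, Myoc, myocilin, and 1500015O10Rik. All 15 had between 0 and 2 counts over the 4 MNC libraries. Some of the most abundant MSC genes were shared with MNCs at lower levels.

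Cst3, the secreted protease inhibitor cystatin C, was at 12407, 7753, 8864, 13220 and 12727 RPKM in MSCs and at 891, 743, 462 and 557 in MNCs (log2 fold change 4.12, SE 0.25, adjusted p = 1.27e-06). Fth1, the heavy chain of the iron store ferritin, was at 3756 to 5591 RPKM in MSCs and 351 to 1127 in MNCs (log2 fold change 2.61, SE 0.34, adjusted p = 0.000189). Neither gene had libraries that overlapped between the populations. Mgp, which encodes matrix Gla protein, an inhibitor of calcification, varied more among the mice, at 3911, 2513, 9947, 5684 and 2118 RPKM in MSCs and at most 0.24 in MNCs.

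On the MNC side the leading genes were those of neutrophil granules, red cells and antigen presentation. S100a8 and S100a9 encode calprotectin, the main cytosolic protein of neutrophils. S100a8 was the most abundant gene of MNCs by the mean, though Hba-a2, an alpha globin gene, was higher in MNC replicates 3 and 4. S100a8 was at 99275, 80339, 71242 and 66361 RPKM in MNCs and at 6.94, 14.0, 12.01, 0.09 and 14.5 in MSCs (log2 fold change -12.97, SE 1.16, adjusted p = 1.60e-05). Chil3, a chitinase-like protein of myeloid cells, was at 3526, 3817, 5778 and 6782 RPKM in MNCs and had no count in MSCs, a difference of at least 362122-fold. Mmp8, the neutrophil collagenase, was at 823, 478, 829 and 723 RPKM against 0. Cd177, a neutrophil surface protein, was at 510, 489, 649 and 598 RPKM against 0. These genes were even across the MNC libraries. By contrast, Car2, the carbonic anhydrase of red cells, was at 10.3 RPKM in MNC replicate 1 and at 966, 5032 and 4748 in the others, again against 0 in every MSC library. Cd74 and H2-Aa, which serve antigen presentation by MHC class II, were at 482 to 2140 and 114 to 701 RPKM in MNCs. The 15 with the largest fold also held Fcnb, a ficolin, Itgb2l, a neutrophil integrin chain, Clec5a, a myeloid lectin receptor, Prss34, a basophil protease, and 4 transcripts known by clone names, mFLJ00385, M34473, 1100001G20Rik and 1810033B17Rik. Prss34 had 1 count over the MSC libraries, and the remaining 14 genes had none.

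The sequence upstream of the genes differed in composition between the populations. Promoters here are the 300 bases from 250 before to 50 after each RefSeq start site on GRCm38.p6, found for 10817 of the 14885 genes tested (72.7%), and the match is by gene symbol, so a gene may have several. They are shown for 4 leading genes, each with a motif of a factor of its lineage in capitals: the PU.1 motif GAGGAAGT of myeloid genes, the GATA motif AGATAA of erythroid genes and the TEAD motif ACATTCC, searched on both strands, so that a capital run may be the reverse complement. The S100a8 promoter (chr3:90668821-90669120, plus strand) and the Mmp8 promoter (chr9:7558179-7558478, plus strand) held PU.1 motifs that began at positions -172 and -221 from the start site. The Hbb-bs promoter (chr7:103827879-103828178, minus strand) held a GATA motif at -210, and the Col3a1 promoter (chr1:45311288-45311587, plus strand) held a TEAD motif at -169. Most promoters of called genes held none of these motifs, so these 4 do not stand for their sets.
S100a8: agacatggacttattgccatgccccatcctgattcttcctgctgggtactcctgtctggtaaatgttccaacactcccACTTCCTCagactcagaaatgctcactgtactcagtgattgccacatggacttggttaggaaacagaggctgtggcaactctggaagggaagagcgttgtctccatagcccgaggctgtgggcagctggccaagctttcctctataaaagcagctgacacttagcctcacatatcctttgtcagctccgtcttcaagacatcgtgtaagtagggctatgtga
Mmp8: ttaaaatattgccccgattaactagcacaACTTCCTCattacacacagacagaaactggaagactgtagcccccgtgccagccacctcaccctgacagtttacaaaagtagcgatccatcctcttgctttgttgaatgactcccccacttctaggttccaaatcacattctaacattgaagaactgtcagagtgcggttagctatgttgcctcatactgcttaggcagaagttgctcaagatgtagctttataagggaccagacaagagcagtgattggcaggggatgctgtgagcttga
Hbb-bs: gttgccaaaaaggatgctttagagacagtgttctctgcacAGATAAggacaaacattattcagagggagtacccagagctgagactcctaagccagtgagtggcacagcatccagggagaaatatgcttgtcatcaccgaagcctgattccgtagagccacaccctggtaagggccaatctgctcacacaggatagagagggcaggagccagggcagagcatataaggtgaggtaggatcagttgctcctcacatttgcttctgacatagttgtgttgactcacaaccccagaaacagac
Col3a1: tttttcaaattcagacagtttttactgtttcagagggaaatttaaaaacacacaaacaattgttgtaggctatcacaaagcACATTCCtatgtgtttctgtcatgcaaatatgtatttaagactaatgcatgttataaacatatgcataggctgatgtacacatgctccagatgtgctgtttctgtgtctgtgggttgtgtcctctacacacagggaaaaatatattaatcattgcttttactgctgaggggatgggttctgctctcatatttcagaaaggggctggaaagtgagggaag

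The PU.1 motif stood in 6.01% of 2680 promoters of genes higher in MNCs, in 2.18% of 3208 promoters of genes higher in MSCs, in 2.79% of 7857 promoters of tested genes that were not called and in 3.2% of all 32851 promoters. The GATA motif stood in 9.07%, 5.36%, 6.82% and 11.2% of the same sets. The TEAD motif stood in 2.43% of the MNC set and 3.74% of the MSC set, beside 2.47% of those not called and 3.85% of all. Among other motifs searched, C/EBP (TTGCNNCAA) stood in 1.64% of the MNC set, 1.31% of the MSC set and 1.59% of those not called. RUNX (TGTGGT) stood in 17.4%, 11.7% and 12.9% of these sets, and AP-1 (TGANTCA) in 6.34%, 6.3% and 5.04%. The sets also differed in base composition, which changes how often any such run of letters occurs: median GC was 57.3% for MNC genes, 61.7% for MSC genes and 60.3% for genes not called. Promoters with fewer than 5 CpG made up 22.1% of the MNC set, 13.3% of the MSC set and 9.84% of those not called. Its part in the motif shares was not tested, and these shares are given as a description.

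The genes of the sort were read next. Ly6a, which encodes the sorted antigen Sca1, was at 3089, 2846, 2929, 2960 and 2755 RPKM in MSCs and 146, 90.5, 152 and 107.98 in MNCs (log2 fold change 4.58, SE 0.26, adjusted p = 8.64e-07). Ptprc, which encodes CD45, was at 0.04, 0, 0, 0.03 and 0.12 RPKM in MSCs and 146, 135, 125 and 131 in MNCs (log2 fold change -12.01, SE 1.02, adjusted p = 1.14e-05). Pecam1, which encodes CD31, was at 0 to 0.06 RPKM in MSCs and 6.47 to 9.76 in MNCs. Alcam, which encodes CD166, was at most 0.21 RPKM in MSCs and 2.71 to 8.44 in MNCs. Because these 4 antigens were gated in MSCs, their levels describe the sort. Pdgfra, the platelet-derived growth factor receptor that marks stroma and was not part of this gate, was at 92.1, 107, 64.2, 73.6 and 75.6 RPKM in MSCs and at most 0.01 in MNCs. Angptl1, a secreted angiopoietin-like protein, was at 594, 98.6, 195, 310 and 139 RPKM in MSCs and 0.02 to 0.23 in MNCs (log2 fold change 11.38, SE 0.90, adjusted p = 7.43e-06). Of 19 stromal marker genes tested, 16 were higher in MSCs and none in MNCs, with a median log2 RPKM ratio of 4.55, beside 0.0026 over all genes tested. The count includes Ly6a, whose direction the sort fixed. It also includes genes such as Dpt, which had no count in MNCs and entered the test through MSCs alone. Cd44, Mcam and Ngfr were not called, and Nes, a marker used for some niche cells, had too few reads to test, at most 0.35 RPKM in any library.

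Markers of other nonblood cells were low in MSCs but not all absent. Of 12 endothelial genes tested, 5 were higher in MSCs and 4 in MNCs. Cdh5, the cadherin that defines endothelium, was at most 0.19 RPKM in MSCs and 0.17 to 1.43 in MNCs, a call lost without MSC replicate 4 or any MNC library (adjusted p of 0.108 to 0.2145), and Kdr, Emcn and Cldn5 had too few reads to test. Tek, the angiopoietin receptor, was at 19.6, 6.6, 5.79, 9.51 and 6.87 RPKM in MSCs, and Ramp2, a receptor-modifying protein, was at 43.0 to 67.5. Both had no count in MNCs. S100b and Cdh19, which mark nerve sheath cells among others, were higher in MSCs, with S100b at 18.8 to 67.2 RPKM against 0. The muscle genes Acta1, Tnni2 and Mylpf were higher in MNCs, Mylpf not without MNC replicate 4 (adjusted p = 0.1267).

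**Figure D2:**
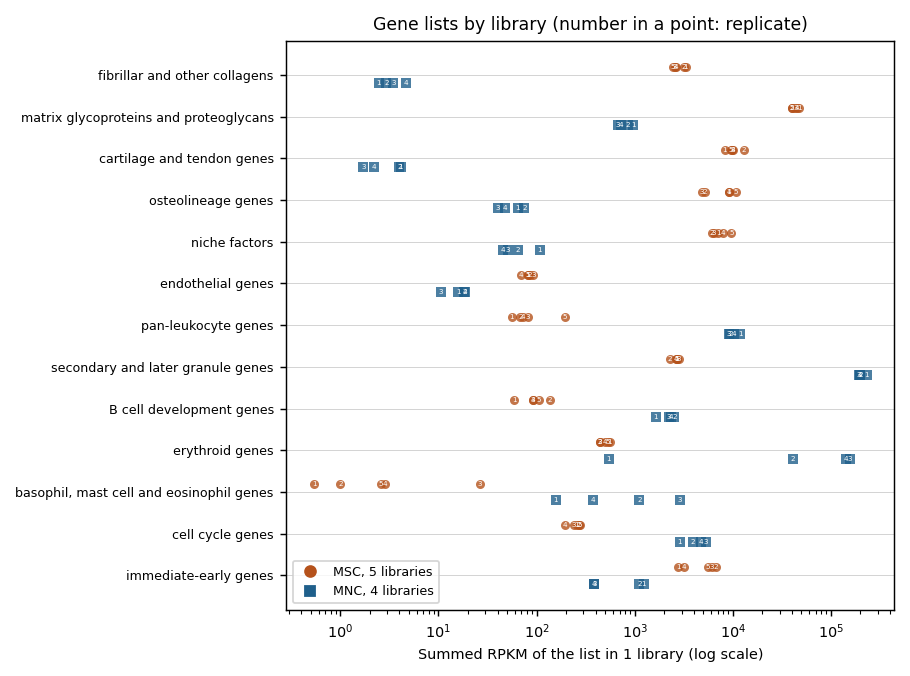
Summed RPKM of 13 gene lists in each wild-type library on a log scale, with a brown circle for each of 5 MSC libraries, a blue square for each of 4 MNC libraries and the replicate number inside. Collagens summed to 2458 to 3297 in MSCs and 2.47 to 4.69 in MNCs, leukocyte genes to 55.78 to 195.3 and 9119 to 11890, and in the erythroid list MNC replicate 1, at 542.6, sits among the MSC libraries.

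Matrix genes lay almost wholly on the MSC side. Of 44 collagen genes, 28 had enough reads to test, some of them through MSCs alone, which set their direction. Of the 28, 26 were higher in MSCs and none in MNCs (median log2 RPKM ratio 10.50), and Col4a4 and Col9a3 were not called. Col1a1 and Col1a2 encode the chains of type I collagen, the main protein of bone. Col1a2 was at 865, 1020, 733, 654 and 725 RPKM in MSCs and 0.50 to 0.96 in MNCs (log2 fold change 10.88, SE 0.36, adjusted p = 8.04e-08). Col1a1 was at 318 to 480 RPKM and 0.01 to 0.39 (log2 fold change 11.28, SE 1.05, adjusted p = 2.16e-05). Col2a1, the collagen of cartilage, split the mice, at 45.3, 4.06, 31.5, 46.1 and 1.98 RPKM in MSCs. Of 72 matrix glycoprotein and proteoglycan genes, 67 were higher in MSCs (median log2 RPKM ratio 9.33). Some of the 72 also entered the test through MSCs alone, which set their direction. Sparc, osteonectin, was at 2740 to 3801 RPKM against at most 0.95 (log2 fold change 12.75, SE 1.07, adjusted p = 1.04e-05), and Bgn, biglycan, was at 1217 to 2352 against at most 0.05. The only member of that list higher in MNCs was Srgn, serglycin, the proteoglycan that packs granule proteins inside blood cells, at 612, 574, 457 and 531 RPKM in MNCs and 23.2, 97.4, 97.2, 67.7 and 66.6 in MSCs (log2 fold change -2.90, SE 0.36, adjusted p = 0.000153).

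The enzymes that finish and crosslink collagen followed the same side, with 23 of 26 higher in MSCs and none in MNCs. Some, such as Lox, entered the test through MSCs alone, which set their direction. Lox, lysyl oxidase, was at 67.9 to 138 RPKM in MSCs with no count in MNCs, at least 11664-fold. The difference was small for Ppib, a prolyl isomerase of the secretory pathway, at 345 to 579 RPKM in MSCs and 196 to 247 in MNCs (log2 fold change 1.10, SE 0.19, adjusted p = 0.00124). Of 47 genes of proteases, their inhibitors and receptors tested, 29 were higher in MSCs and 13 in MNCs. Those of MSCs included Ctsk, the collagen-cutting cathepsin K (285 to 455 RPKM, at most 0.10 in MNCs), Mmp2 (191 to 360, at most 0.87), Ctsl (442 to 651, against 11.0 to 41.7) and Timp3, a metalloproteinase inhibitor (96.0 to 175, at most 0.08). Those of MNCs included Elane, neutrophil elastase (149 to 1006 RPKM), Mmp9 (173 to 237) and Ctss (327 to 577). Elane and Ctss had counts in a single MSC library, replicate 5, at 13.2 and 5.87 RPKM. Mmp3 and Mmp13, which break down cartilage and bone matrix, varied widely among MSC libraries, Mmp13 from 0.24 to 127 RPKM.

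The MSC libraries held RNA of genes of several skeletal tissues. Each is bulk RNA of 100 cells, so cells that make them all cannot be told from a mix of cell types. All 15 cartilage and tendon genes tested were higher in MSCs (median log2 RPKM ratio 11.66). Some of them, such as Tnmd, had no count in MNCs. They passed the read filter through MSCs alone, which set their direction. Prg4, lubricin of the joint surface, was at 2058, 8381, 4584, 3373 and 2719 RPKM in MSCs and 1.60 to 3.71 in MNCs (log2 fold change 10.95, SE 0.62, adjusted p = 8.30e-07). Comp, a matrix protein of cartilage and tendon, was at 505 to 1084 RPKM (at most 0.34 in MNCs), Sox9, the master factor of cartilage, at 36.1 to 183, and Tnmd, a tendon membrane protein, at 84.7 to 412. Every MSC library held them. Of 15 bone-forming genes tested, 12 were higher in MSCs. Spp1, osteopontin, was at 3943, 2019, 1384, 5573 and 7383 RPKM in MSCs and 6.81 to 13.2 in MNCs (log2 fold change 8.77, SE 0.69, adjusted p = 6.93e-06). Ibsp, bone sialoprotein, was at 1179 to 2903 RPKM. Bglap, osteocalcin, was at 400, 625, 463, 136 and 35.0 RPKM in MSCs (log2 fold change 8.99, SE 1.17, adjusted p = 0.000197). Sp7, the factor of committed osteoblasts, was at most 1.62 RPKM and was not tested.

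Fat and vessel-wall genes were more mixed. Of 16 fat lineage and leptin receptor genes tested, 9 were higher in MSCs and 3 in MNCs, namely Plin2, Cd36 and Hp. Lepr, the leptin receptor, which marks stromal cells around vessels, was at 19.8, 60.3, 24.9, 76.5 and 47.9 RPKM in MSCs and 1.86 to 3.44 in MNCs (log2 fold change 4.01, SE 0.43, adjusted p = 5.33e-05). Adipoq, the fat hormone adiponectin, was at 18.6 RPKM in MSC replicate 4 and at most 0.11 in the other 8 libraries, and Pparg, the fat cell factor, was at 16.6 in MSC replicate 1 and at most 0.76 in the other MSC libraries. Of 13 pericyte and smooth muscle genes, 10 were higher in MSCs. Rgs5, a pericyte gene, ranged from 0.13 to 150 RPKM among MSC libraries. Acta2, smooth muscle actin, was higher in MNCs, at 6.65 to 23.4 RPKM against 1.09 to 8.59 (log2 fold change -1.68, SE 0.61, adjusted p = 0.0505), but the groups overlapped and the call was lost without MNC replicate 4 (adjusted p = 0.204). Gene by gene, MSC libraries spread more than MNC libraries: the median coefficient of variation was 32% over 5078 genes with a mean of at least 10 RPKM in MSCs and 23.9% over 5175 such genes in MNCs.

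**Figure D3:**
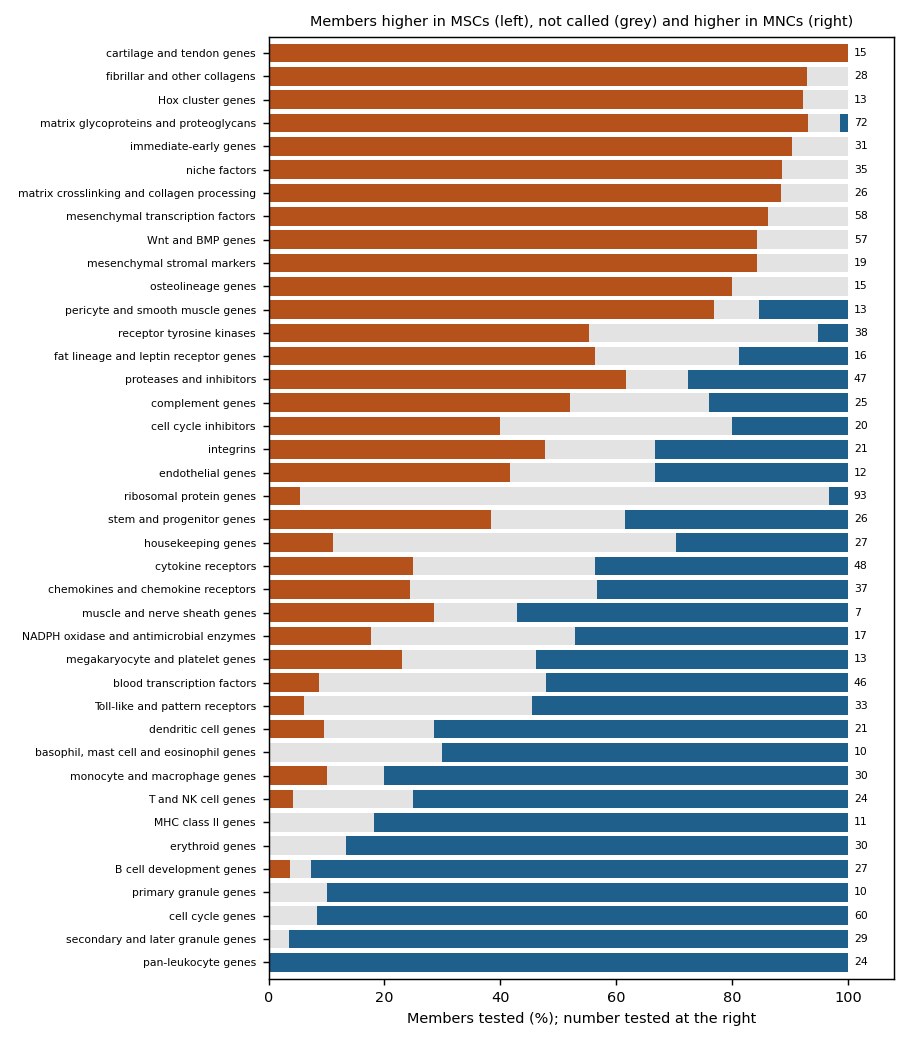
Each bar is 1 of 40 gene lists and divides its tested members, in percent, into those higher in MSCs (brown, left), not called (gray) and higher in MNCs (blue, right), with the number tested at the right end. Matrix and skeletal lists are mostly brown, leukocyte and cell cycle lists mostly blue, ribosomal protein genes mostly gray, and stem and progenitor genes have 10 of 26 on each side.

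Most genes of known niche factors were higher in MSCs. Of 49 listed, 35 had enough reads to test, some of them through MSCs alone, which set their direction. Of the 35, 31 were higher in MSCs and none in MNCs (median log2 RPKM ratio 6.90), and Angpt1, Flt3l, Hgf and Cxcl16 were not called. Cxcl12, the chemokine that keeps stem cells in marrow, was at 144, 263, 259, 363 and 85.3 RPKM in MSCs and 0, 0.02, 1.33 and 0.01 in MNCs (log2 fold change 9.36, SE 1.52, adjusted p = 0.000791). Kitl, stem cell factor, was at 16.98, 27.6, 0.90, 28.3 and 4.03 RPKM in MSCs and at most 0.47 in MNCs (log2 fold change 6.05, SE 1.51, adjusted p = 0.00942). Il7, the growth factor of B cell precursors, was at 24.2, 0, 1.40, 13.1 and 0.22 RPKM in MSCs and at most 0.57 in MNCs (log2 fold change 5.76, SE 2.20, adjusted p = 0.0601), a call lost without MSC replicate 1 (adjusted p = 0.1162) or without MNC replicate 2, 3 or 4 (0.1237 to 0.1362). Cxcl12 was thus well above MNCs in every MSC library, while the lowest MSC library lay just above the MNCs for Kitl and among them for Il7. Csf1, the macrophage growth factor, was at 19.7 to 73.0 RPKM against 0.14 to 1.25 (log2 fold change 5.25, SE 0.72, adjusted p = 0.000278). Igf1, a growth factor, was at 136 to 333 RPKM against 0.28 to 0.87 (log2 fold change 9.11, SE 0.65, adjusted p = 3.67e-06). Of 57 genes of the Wnt and BMP pathways, 48 were higher in MSCs and none in MNCs (median log2 RPKM ratio 6.94), for example Bmp4 at 20.7 to 66.5 RPKM against 0.04 to 0.16. Some of the 57, such as Frzb, had no count in MNCs. They entered the test through MSCs alone, which set their direction.

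To see how the populations could address each other, 45 pairs of a ligand and its receptor were read together. Both genes were called in 26 pairs, and in 10 of these the ligand was higher in MSCs and the receptor in MNCs. They were Cxcl12 with Cxcr4, Csf1 with Csf1r, Il7 with Il7r, Vcam1 with Itga4, Icam1 with Itgal, Jag1 with Notch1, Ccl2 with Ccr2, Cxcl1 with Cxcr2, Cx3cl1 with Cx3cr1 and Ccl19 with Ccr7. Among all genes tested, 23% were higher in MSCs and 19.7% in MNCs. Several of the 10 receptors, such as Itgal and Ccr2, are leukocyte genes, and MSCs were sorted as CD45 negative. The sort and the choice of pairs thus largely set the count of 10. The calls of Il7 and of Vcam1 rested on single libraries, Vcam1 on MNC replicate 2 (adjusted p = 0.1166 without it). Cxcr4 was at 43.2, 44.5, 29.4 and 31.0 RPKM in MNCs and at most 0.08 in MSCs apart from 2.25 in replicate 5 (log2 fold change -6.19, SE 1.44, adjusted p = 0.00634). Il7r was at 16.7 to 20.8 RPKM in MNCs and at most 0.06 in MSCs (log2 fold change -8.71, SE 0.37, adjusted p = 1.94e-07). Ccl2, which draws monocytes, was at 970, 590, 943, 147 and 432 RPKM in MSCs and at 70.5, 27.4, 5.31 and 2.85 in MNCs, and its receptor Ccr2 was at 162 to 299 RPKM in MNCs. Cxcl1, which draws neutrophils, was at 562 to 2068 RPKM in MSCs and at most 0.05 in MNCs. Its receptor Cxcr2 was at 117, 55.5, 80.7 and 64.5 RPKM in MNCs and was also present in every MSC library, at 11.6 to 25.6 (log2 fold change -1.65, SE 0.27, adjusted p = 0.00091).

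The reverse direction, a ligand higher in MNCs with a receptor higher in MSCs, held for 3 pairs: Osm with Osmr, Il1b with Il1r1 and Sema4d with Plxnb2. In a single model of all 28 libraries the calls of Il1b (adjusted p = 0.1169) and Plxnb2 (adjusted p = 0.4742) were lost, and that of Il1b was also lost with MNC replicates 1 and 2 alone (0.156) or 3 and 4 alone (0.1678). Osm, oncostatin M, was at 68.2, 22.8, 10.6 and 4.24 RPKM in MNCs and at most 0.28 in MSCs, while Osmr was at 17.8 to 42.0 in MSCs and at most 0.05 in MNCs. Il1r1, the interleukin 1 receptor, was at 38.9 to 70.2 RPKM in MSCs and at most 0.61 in MNCs. In 12 pairs both genes were higher in MSCs, among them Pdgfa and Pdgfc with Pdgfra, Gas6 with Axl, Fgf7 with Fgfr2, Bmp4 with Bmpr1a and Hbegf with Egfr. In 1 pair, Hp with Cd163, both were higher in MNCs, though the call of Cd163 was lost without MNC replicate 3 (adjusted p = 0.1086). Kit, the receptor of stem cell factor, was not called, at 3.53, 9.99, 6.18 and 2.44 RPKM in MNCs and 0, 0, 0, 5.30 and 1.88 in MSCs. For Flt3, the receptor that gives the study its mutant, the level was 6.96, 6.74, 2.53 and 2.72 RPKM in MNCs with no count in MSCs, and its ligand Flt3l was not called. Messenger RNA of both partners does not show that they met as proteins.

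**Figure D4:**
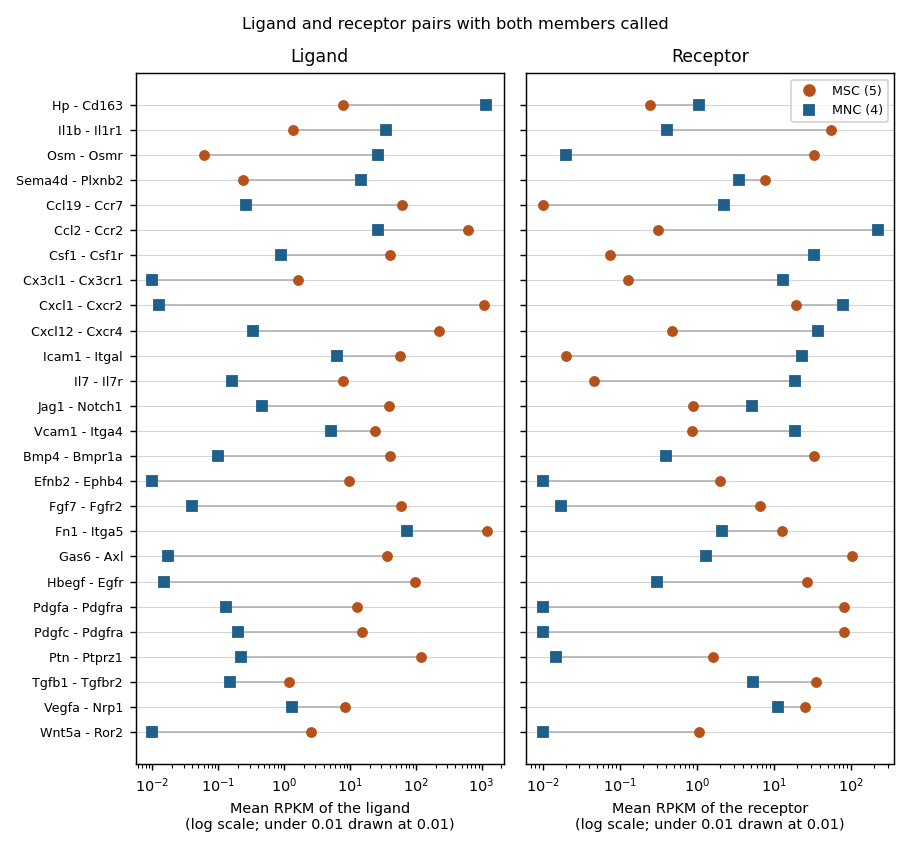
Mean RPKM in wild-type MSCs (brown circles, 5 libraries) and MNCs (blue squares, 4 libraries) of the ligand (left panel) and of the receptor (right panel) for the 26 pairs with both genes called, on a log scale with levels under 0.01 drawn at 0.01. In 10 pairs the MSC symbol is to the right for the ligand and to the left for the receptor, in 3 the reverse, and in the others both genes are higher in the same population.

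Receptor families were counted beside the background of 23% of genes higher in MSCs and 19.7% higher in MNCs. Of 38 receptor tyrosine kinase genes tested, 21 were higher in MSCs and 2 in MNCs, Csf1r and Flt3. Axl, which binds Gas6, was at 65.3 to 175 RPKM in MSCs and 0.53 to 1.84 in MNCs (log2 fold change 6.40, SE 0.51, adjusted p = 7.89e-06). Of 48 cytokine receptor genes, 12 were higher in MSCs and 21 in MNCs. Il6st, the shared chain of the interleukin 6 family, was at 20.6 to 41.8 RPKM in MSCs and 1.27 to 5.42 in MNCs (log2 fold change 3.41, SE 0.42, adjusted p = 0.000138). Il2rg, the shared chain of lymphocyte cytokine receptors, was at 101 to 152 RPKM in MNCs and had counts in a single MSC library, 10.6 RPKM in replicate 5. Tnfrsf11b, osteoprotegerin, the decoy that restrains bone-resorbing cells, was at 84.0 to 265 RPKM in MSCs with no count in MNCs. Of 37 chemokine and chemokine receptor genes, 9 were higher in MSCs, all of them chemokines, and 16 in MNCs, of which 11 were receptors. Of 21 integrin genes, 10 were higher in MSCs and 7 in MNCs, with Itgb1, the partner of matrix-binding chains, at 92.0 to 162 RPKM in MSCs and 10.7 to 28.5 in MNCs.

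All 24 leukocyte genes tested were higher in MNCs (median log2 RPKM ratio -7.43), with every MNC library above every MSC library for each. The count includes Ptprc, whose direction the sort fixed. The gates against CD45 and Ter119 leave leukocytes and red cells out of MSCs. The direction of this list and of the blood lineage lists below therefore describes the sort. Without MSC replicate 5 all 24 leukocyte genes were again higher in MNCs. Cd53, a tetraspanin of leukocytes, was at 428, 365, 339 and 395 RPKM in MNCs and 0, 0, 1.38, 0 and 7.91 in MSCs (log2 fold change -7.67, SE 1.87, adjusted p = 0.0084). Neutrophil genes came first in quantity: 28 of 29 genes of secondary and later granules and 9 of 10 of primary granules were higher in MNCs. Ngp, a granule protein, was at 35753, 40307, 44037 and 45628 RPKM in MNCs and 0, 0.03, 11.9, 0.21 and 4.72 in MSCs (log2 fold change -13.53, SE 2.01, adjusted p = 0.000453). Mpo, the myeloperoxidase of primary granules, was at 345, 772, 299.7 and 603 RPKM in MNCs, and 0.06, 0, 0, 0 and 21.9 in MSCs (log2 fold change -6.83, SE 2.26, adjusted p = 0.0348). Lyz2, lysozyme, was at 10815 to 18417 RPKM in MNCs and 0, 0, 0.06, 9.03 and 85.7 in MSCs. The highest MSC library was replicate 5 for Mpo and Lyz2 and replicate 3 for Ngp. Anxa1, annexin A1, named with neutrophil granules, was not called: it was high in both populations, at 2227 to 2697 RPKM in MSCs and 2909 to 3726 in MNCs.

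Among the other blood lineages, 24 of 30 monocyte and macrophage genes, 15 of 21 dendritic cell genes, 25 of 27 B cell development genes, 18 of 24 T and NK cell genes and 7 of 10 basophil, mast cell and eosinophil genes were higher in MNCs. Vpreb3, a gene of B cell precursors, was at 105, 270, 143 and 272 RPKM in MNCs with no count in MSCs, and Dntt, the enzyme that diversifies antigen receptors, at 77.8, 57.7, 15.9 and 79.6 likewise. Csf1r, which defines monocytes and macrophages, was at 42.5, 37.8, 19.1 and 31.8 RPKM in MNCs and at most 0.31 in MSCs (log2 fold change -8.56, SE 1.26, adjusted p = 0.000411). Ly6c2, a surface protein of monocytes, was present in both, at 1419 to 2665 RPKM in MNCs and 228 to 411 in MSCs (log2 fold change -2.59, SE 0.24, adjusted p = 2.30e-05). Of 13 megakaryocyte genes, 7 were higher in MNCs and 3 in MSCs (Itgb3, Rab27b and Thbs1). Members of the blood lists on the MSC side included Klf4 and Vcam1 for monocytes, Zbtb46 and Tcf4 for dendritic cells, Ebf1 for B cells and Thy1 for T cells. Zbtb46 was at 0.16 to 2.72 RPKM in MSCs and 0.14 to 0.25 in MNCs and lost its call without MNC replicate 1, 2 or 3 (adjusted p of 0.1092 to 0.1141), and Vcam1 lost its call without MNC replicate 2 (adjusted p = 0.1166).

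Erythroid genes depended on the library. Of 30 tested, 26 were higher in MNCs and none in MSCs (median log2 RPKM ratio -4.44), but every MNC library lay above every MSC library for only 12. Hba-a2 was at 47.6, 20285, 79279 and 71658 RPKM in MNCs and 23.0, 0, 7.04, 0.06 and 0 in MSCs (log2 fold change -12.90, SE 2.83, adjusted p = 0.00468). Hbb-bs, a beta globin gene, was at 31.9, 12951, 49538 and 44876 RPKM in MNCs and 0.80, 5.04, 0, 0 and 0 in MSCs. Both globins were thus nearly absent from MNC replicate 1. Another 13 erythroid genes had too few reads in that library to be tested at all, among them Alas2, which starts heme synthesis (0.11, 133, 754 and 592 RPKM in MNCs), and Gata1, the erythroid master factor (0.03, 21.8, 74.9 and 82.1). Without MNC replicate 1, 42 genes were tested and 39 were higher in MNCs. With MNC replicates 1 and 2 alone, 15 of 31 were, and with MNC replicates 3 and 4 alone, 40 of 43. Genes of near-identical sequence, such as the alpha globins, may share reads that the authors' counting discarded.

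Transcription factors of the mesenchyme were on the MSC side in 50 of 58 cases and never on the MNC side (median log2 RPKM ratio 6.40). Some of the 58, such as Twist1, passed the read filter through MSCs alone, which set their direction. Prrx1, a factor of limb mesenchyme, was at 52.2, 72.9, 49.2, 64.3 and 75.4 RPKM in MSCs and 0.03 to 0.11 in MNCs (log2 fold change 10.13, SE 0.36, adjusted p = 8.70e-08). Twist1 was at 9 to 28.8 RPKM and Meox2 at 44.3 to 107, both with no count in MNCs. Of 39 Hox genes, which mark position along the body, 13 had enough reads to test. Of these, 12 were higher in MSCs, all from the A, C and D clusters. Some, such as Hoxc10, had almost no reads in MNCs. They passed the read filter through MSCs alone, which set their direction. Hoxc10 was at 16.1 to 35.6 RPKM and Hoxa10 at 9.78 to 25.2, against at most 0.03 and 0.19. Runx2, the factor of bone formation, was not called with all libraries, at 2.42 to 4.36 RPKM in MSCs and 12.2, 8.86, 2.10 and 3.08 in MNCs.

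Of 46 transcription factors named for blood, 24 were higher in MNCs, 18 were not called and 4, among them Ebf1, Runx1 and Zbtb16, were higher in MSCs. Ikzf1, Ikaros of lymphocytes, was at 31.1 to 56.2 RPKM in MNCs and at most 0.63 in MSCs (log2 fold change -7.67, SE 1.37, adjusted p = 0.0014). Cebpe, which directs granule genes, was at 15.9 to 34.7 RPKM in MNCs with no count in MSCs. Runx1, known for its role in blood stem cells, was at 12.2, 32.1, 21.2, 22.9 and 33.8 RPKM in MSCs and 7.56, 7.40, 4.65 and 2.19 in MNCs (log2 fold change 2.23, SE 0.38, adjusted p = 0.000974). Ebf1, which starts the B cell program and also acts in stroma, was at 53.8, 61.2, 47.9, 60.8 and 78.9 RPKM in MSCs and 15.4, 28.4, 20.6 and 15.6 in MNCs (log2 fold change 1.66, SE 0.23, adjusted p = 0.000308). For both factors the lowest MSC library lay above the highest MNC library.

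Genes used to mark blood stem and progenitor cells divided evenly: of 26 tested, 10 were higher in MSCs, 10 in MNCs and 6 were not called. Those of MSCs were Cd34, Mecom, Hlf, Procr, Hoxa9, Runx1, Fgd5, Ctnnal1, Tek and Nrip1. Cd34 was at 536, 342, 238, 342 and 375 RPKM in MSCs and 7.39, 12.6, 20.8 and 17.2 in MNCs (log2 fold change 4.64, SE 0.44, adjusted p = 2.57e-05). Procr, the endothelial protein C receptor, was at 20.6, 90.3, 83.8, 67.9 and 36.2 RPKM in MSCs and at most 0.82 in MNCs (log2 fold change 8.20, SE 1.13, adjusted p = 0.000281). Hlf, a factor of quiescent stem cells, was lower and overlapped, at 0.31 to 6.86 RPKM in MSCs and 0.25 to 1.14 in MNCs (log2 fold change 2.35, SE 0.80, adjusted p = 0.0394), and its call was lost without MNC replicate 4 (adjusted p = 0.1007). Nrip1, a nuclear receptor corepressor, lost its call without MSC replicate 1 or any MNC library (adjusted p of 0.1018 to 0.1894). The side of MNCs held Flt3, Tal1, Lmo2, Lyl1, Myb, Cd48, Vwf, Hhex, Egfl7 and Muc13. MNCs average over all marrow cells, of which stem cells are a rare part.

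Many leukocyte proteins have a relative or a counterpart of like role that other tissues use, and 30 such pairs were compared. They include Srgn with Dcn, which share only that both are proteoglycans. The leukocyte member was higher in MNCs in 28 of 30, beside 19.7% of all genes tested. Since it was picked as a leukocyte gene and MSCs were sorted as CD45 negative, the choice and the sort largely set this count. They also largely set the shares given below. The widely used member was higher in MSCs in 15, not called in 13 and higher in MNCs in 2, Vav2 and Elmo2. The share of the leukocyte member in the pair's RPKM was higher in every MNC library than in every MSC library for 26 of 30. Of the small GTPases of the actin skeleton, Rac2 was at 628 to 880 RPKM in MNCs and 0.82 to 5.93 in MSCs (log2 fold change -8.54, SE 0.73, adjusted p = 1.21e-05), while Rac1 was at 32.5 to 81.9 in MNCs and 47.9 to 105 in MSCs, less than 2-fold apart in the mean, and was not called. Rac2 made up 91.2 to 96.4% of the pair in MNCs and 1 to 11% in MSCs. For the kindlins, which switch integrins on, Fermt3 was at 58.9 to 69.4 RPKM in MNCs and 0, 0.02, 0, 0.07 and 4.29 in MSCs, and Fermt2 was at 84.5 to 125 in MSCs with no count in MNCs. Among actin bundlers, Lcp1 was at 363 to 556 RPKM in MNCs and 0, 0, 0, 0 and 6.68 in MSCs, and Pls3 was at 107 to 175 in MSCs and 4.51, 0.02, 0 and 1.07 in MNCs. The exceptions were Runx1, higher in MSCs beside its relative Runx2, and Nfatc3, which was not called.

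**Figure D5:**
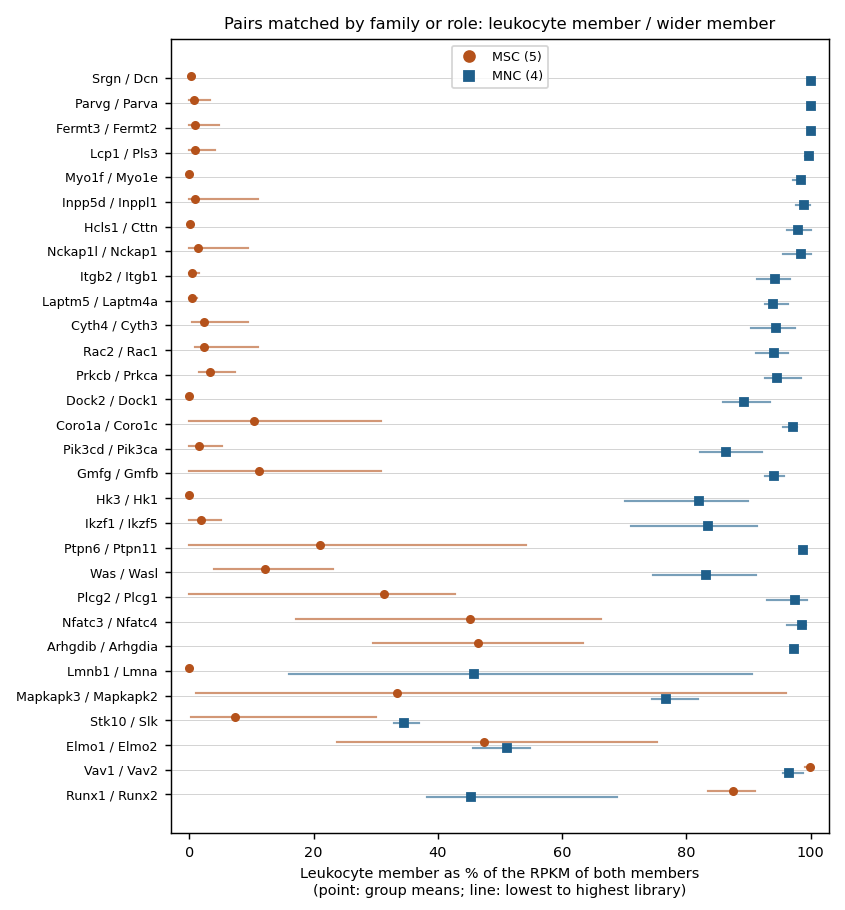
Leukocyte member as a percent of the RPKM of both members for 30 pairs of genes matched by family or role, with a point for the group means and a line from the lowest to the highest library, in wild-type MSCs (brown circles) and MNCs (blue squares). In MNCs most pairs are near 100%, as for Fermt3 over Fermt2, in MSCs most are low, and Runx1 over Runx2 runs the other way, at 87.5% in MSCs and 45.3% in MNCs.

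Genes of cell division were higher in MNCs in 55 of 60 cases and never in MSCs (median log2 RPKM ratio -5.35). Some, such as Aurkb, had no count in MSCs and entered the test through MNCs alone, which set their direction. Mki67, a marker of cycling cells, was at 40.3, 64.3, 73.9 and 55.3 RPKM in MNCs and at most 0.12 in MSCs (log2 fold change -10.93, SE 1.21, adjusted p = 6.70e-05). Ccnb1, the mitotic cyclin B1, was at 95.7, 174, 295 and 340 RPKM in MNCs and at most 0.09 in MSCs (log2 fold change -12.88, SE 0.95, adjusted p = 4.51e-06). Both were lowest in MNC replicate 1, the library short of erythroid RNA. Of 20 genes of a list of cycle inhibitors and regulators, which also holds the D-type cyclins, 8 were higher in MSCs and 4 in MNCs. Cdkn1a, the inhibitor CIP1, was at 61.5, 147, 154, 94.4 and 132 RPKM in MSCs and 8.98, 9.55, 1.92 and 2.54 in MNCs (log2 fold change 4.495, SE 0.53, adjusted p = 9.79e-05). Cdkn1c, the inhibitor KIP2, was at 5.65 to 19.9 RPKM in MSCs and 0.04 to 0.26 in MNCs (log2 fold change 6.93, SE 0.72, adjusted p = 4.42e-05). Cdkn2d went the other way, at 219 to 367 RPKM in MNCs and 11.2 to 39.8 in MSCs (log2 fold change -3.60, SE 0.42, adjusted p = 8.85e-05).

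Immediate-early genes, which cells switch on within minutes of a signal or of handling, were higher in MSCs in 28 of 31 cases (median log2 RPKM ratio 4.36), and their sum split both populations. It was 2793, 6730, 6094, 3149 and 5524 RPKM in the MSC libraries and 1233, 1117, 388.9 and 380.2 in the MNC libraries. Fos was at 919, 1892, 1380, 914 and 1319 RPKM in MSCs and 323, 239, 10.4 and 8.06 in MNCs (log2 fold change 3.35, SE 0.99, adjusted p = 0.0213). Egr1 was at 150, 485, 370, 139 and 274 RPKM in MSCs and 13.2, 18.3, 0.04 and 0.59 in MNCs (log2 fold change 5.36, SE 1.32, adjusted p = 0.0088). With MNC replicates 1 and 2 alone 25 of 31 were higher in MSCs, and with MNC replicates 3 and 4 alone 30 of 31. Without MSC replicate 5 the count was 25 of 30, and 1 was then higher in MNCs. The part of preparation in these genes was not tested. Cdkn1a and Klf4 followed the same split of the MNC libraries, and the part of handling in them was not tested.

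Genes of innate defense were read next. Of 25 complement genes tested, 13 were higher in MSCs and 6 in MNCs. MSCs had the starting protease C1s at 112 to 174 RPKM with no count in MNCs and the inhibitor Serping1 at 1207 to 1735 (at most 0.03 in MNCs). Clu, clusterin, which binds the terminal complex, was at 1751, 3655, 2590, 8297 and 6394 RPKM in MSCs and at most 0.89 in MNCs (log2 fold change 12.96, SE 0.78, adjusted p = 1.27e-06). MNCs had Cfp, properdin, at 145 to 281 RPKM and C1qb, of the recognition subunit, at 4.78 to 11.5. C3, the central component, was not called, at 61.9 to 127 RPKM in MSCs and 67.7 to 75.9 in MNCs. Of 33 genes of Toll-like and other pattern receptors, 18 were higher in MNCs and 2, Tlr3 and Tlr4, in MSCs. Tlr4, the receptor of bacterial endotoxin, was at 14.7 to 25.7 RPKM in MSCs and 6.17 to 9.39 in MNCs (log2 fold change 1.27, SE 0.28, adjusted p = 0.00444), a call lost in a single model of all 28 libraries (adjusted p = 0.4478). The subunits of the phagocyte oxidase were higher in MNCs, Cybb at 357 to 462 RPKM against at most 1.67 in MSCs. Nox4, a relative outside phagocytes, was higher in MSCs, at 29.3 to 45.6 RPKM against 3.03 to 5.63. Of 11 MHC class II genes, 9 were higher in MNCs.

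Of 93 genes with ribosomal protein symbols, 85 were not called, 5 were higher in MSCs and 3 in MNCs, and the list holds some kinases and pseudogenes with like symbols. Of 27 reference genes, 16 were not called, 8 were higher in MNCs and 3 in MSCs, beside 42.7% of all genes tested that differed. Eef1a1, a translation factor, was at 2107 to 2625 RPKM in MSCs and 1831 to 2278 in MNCs. Gapdh was at 232 to 376 RPKM in MSCs and 648 to 1072 in MNCs (log2 fold change -1.34, SE 0.20, adjusted p = 0.00046). Actb was at 2817 to 3954 RPKM in MSCs and 9629, 9187, 4257 and 3905 in MNCs (log2 fold change -0.97, SE 0.24, adjusted p = 0.00789), so that its groups overlapped. A gene that was not called is not shown to be equal.

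The same contrast in mice homozygous for the Flt3 internal tandem duplication, Flt3ITD/ITD, used 5 MSC and 4 MNC libraries that are separate from those above. There 2686 of 14640 genes tested were higher in MSCs (18.3%) and 2496 were higher in MNCs (17%). Of the wild-type MSC genes, 3203 were tested in the mutant mice, 3145 had a fold change of the same sign and 2316 were called the same way. Of the wild-type MNC genes, 2801 were tested, 2715 had the same sign and 1850 were called. Dcn, Chad and Prrx1 were among those called in both. A test of the difference between the contrasts over 16159 genes passed an adjusted p under 0.1 for 6, Ccdc22, Foxp3, Socs2, E130308A19Rik, Bbs10 and 2610524H06Rik. The last was the only gene called in opposite directions and, like the other 5, was chosen after its values were seen. It was at a mean of 30.8 RPKM in wild-type MSCs and 7.9 in wild-type MNCs, and at 5.79 and 18.4 in the mutant, a difference of log2 fold changes of 3.39 (adjusted p = 0.0825).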

How the data were processed

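RNA of 100 (MSC) or 200 (MNC) cells was amplified over 15 cycles and read as 51-base reads. Per the labels and the study's methods, the authors aligned reads to mm10 transcripts with Bowtie, discarded reads that matched several places, and counted them with RSEM, whose versions are not given in the sources used here. The deposited table holds, per gene and library, the authors' estimated count, given as a whole number, and their RPKM, given to 2 decimals. Genes that share sequence lose reads by this counting, and amplification from few cells adds spread, and p-values and floors take no account of amplified copies. Counts were filtered by filterByExpr, scaled by TMM and tested with edgeR 4.0.16 (quasi-likelihood, Benjamini-Hochberg adjustment) in R 4.3.3, on the 9 libraries alone with no covariate. Calls needed both an adjusted p under 0.1 and mean RPKM that differed by at least 2-fold. Where a group had no count, a floor of 3 counts over the group gave the bound, and list medians used the same floor. Fold changes are MSC over MNC.

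Genes named in full are the 15 of largest fold in each direction with a mean of at least 10 RPKM, the 10 most abundant of each population, the marker genes and members of 41 gene lists. The members and lists were chosen with earlier results of these data known. DESeq2 1.42.0, limma 3.58.1 (voom), edgeR's exact test, other scalings, filters and thresholds, and fits without single libraries were alternatives. On simulated counts for the 14885 genes, 67 genes were changed 2-fold, 67 were changed 4-fold and 66 were changed 16-fold. The test recovered 2.99%, 32.8% and 86.4% of them, and 4.71% of its calls were wrong. Far fewer genes changed there than the 42.7% called in the data, which makes the adjusted p threshold harder to pass. A 2-fold change also lies on the fold limit of a call. The rates therefore do not give the share of changes missed in the data, and a gene not called may still differ. Counts of the 2 populations of 1 replicate number were not paired: deviations from group means correlated at -0.04, 0.0449, 0.00295 and 0.0306. The endothelial libraries of the study were not used here. A few items are not reported here.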

Additional observations from a re-analysis of the deposited data

Results flagged for a closer look

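In 16 of 322 groups of 4 or 5 libraries the highest library lay apart from the others by more than Dixon's critical value, and chance alone gives about 1 in 20. Among single genes in MSCs, Lyz2 was at 85.7 RPKM in replicate 5 (0 to 9.03 in the others), Hp at 24.5 in replicate 3 (2.14 to 7.01), Tek at 19.6 in replicate 1 (5.79 to 9.51), Egfr at 44.6 in replicate 2 (20.6 to 24.7) and Fermt2 at 125 in replicate 2 (84.5 to 92.7). Also apart were Actb at 3950 RPKM in MSC replicate 1 (2820 to 3130), Bgn at 2350 in MSC replicate 1 (1220 to 1520), Eef1a1 at 2620 in MSC replicate 3 (2110 to 2210) and Jag1 at 47.8 in MSC replicate 4 (36.1 to 38.9). Gapdh was at 1070 RPKM in MNC replicate 1 and 648 to 716 in the other MNC libraries.

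Some whole lists had a library apart. In MSC replicate 5 the leukocyte genes summed to 195 RPKM (55.8 to 81 in the other MSC libraries), in MSC replicate 3 the basophil, mast cell and eosinophil genes to 26.6 (0.54 to 2.85), and in MSC replicate 4 the MHC class II genes to 18.8 (0.02 to 4.52). In MSC replicate 2 proteases and inhibitors summed to 7700 RPKM (6650 to 6810) and receptor tyrosine kinases to 563 (348 to 391). In MNC replicate 1, the library with little erythroid RNA, secondary and later granule genes summed to 232000 RPKM (194000 to 199000 in the other MNC libraries).

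For 6 genes the contrast of MSCs with MNCs differed between wild-type and Flt3ITD/ITD mice by edgeR's test of the difference. The log2 fold change was higher in wild-type mice by 9.78 for Ccdc22 (adjusted p = 0.00014), 8.87 for Foxp3 (0.00211), 3.67 for Socs2 (0.00278), 7.34 for E130308A19Rik, 11.79 for Bbs10 and 3.39 for 2610524H06Rik (0.0825 for each of these 3).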

How the results depend on the processing

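Of 221 single genes recomputed under every alternative, 182 kept their direction and their side of the adjusted p threshold throughout, 30 lost significance in at least 1, 9 passed it in at least 1, and none reversed. Under limma-voom 12 of these genes lost significance, namely Car2, Hba-a2, Hbb-bs, Hbb-bt, Prss34, mFLJ00385, Il7, Hlf, Nrip1, Rab27b, Xist and Zbtb46, and in a single model of all 28 libraries 11 did, namely Acta2, Ccdc22, Cd44, Hlf, Hoxa9, Il1b, Il7, Itgb3, Nrip1, Plxnb2 and Tlr4, and the cause was not tested. The counts of calls stayed within 1.5 times of 3419 and 2938 under all settings: 4074 and 3741 by DESeq2, 3209 and 3607 by limma-voom, 3751 and 3755 with no filter on low counts, and 3309 and 2876 with counts thinned to the smallest library. Fits without 1 wild-type library each gave 3121 to 3476 genes higher in MSCs and 2632 to 2944 higher in MNCs. Fits of the contrast in Flt3ITD/ITD mice without 1 of their libraries each left 3794 to 4191 genes shared with the main wild-type calls (4166 with all). Other scalings moved the median log2 fold change by -0.071 at most. The labels give both populations the same replicate numbers, but nothing says that these mark the same mouse, and same-numbered libraries did not deviate together. For replicates 1 and 4 they mark different mice by sex. Xist was at 13.62 and 14.1 RPKM in MSCs and 0.09 and 0.08 in MNCs, and Ddx3y at 0.21 and 0.07 against 18.04 and 26.57. A wild-type fit with a replicate block gave 2961 and 2875 genes. With such a block in the fit of Flt3ITD/ITD mice alone, 3721 genes were shared with the main wild-type calls. Fits on libraries chosen after the data were seen, MNC replicates 1 and 2 alone, 3 and 4 alone, or MSC replicates 2, 3 and 5 alone, gave 2563 and 2207, 2965 and 2367, and 3425 and 3319. The last of these fits used only libraries that were male by Xist and Ddx3y. Depth limits what is said of genes at 0 to 3 counts, for which bounds are given in place of fold changes.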
